A study of Mus musculus with 6 samples.

Results

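Fetal Leydig cells make androgens from cholesterol and secrete INSL3, and the genes described here are the 10 that encode this machinery: *Star*, *Cyp11a1*, *Cyp17a1*, *Hsd3b1*, *Hsd3b6*, *Insl3*, *Lhcgr*, *Fdx1*, *Por* and *Srd5a1*. They were taken by symbol, and all 10 were found among the 26251 genes that at least 1 of 6 single cell mRNA libraries listed. The gonads were collected at E15.5 from 3 groups of mouse embryos with 2 libraries each. Control XY and control XX embryos were Amh+/+; Inhbb+/+, and dKO XY embryos were Amh-/-; Inhbb-/-. Both knockouts are present in every cell of the embryo, Leydig cells as well as Sertoli cells, and all lines shared a C57BL/6 background. Per the methods, both gonads of an animal were pooled, and the dissociated cells were frozen until the genotype was known.

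Androgen synthesis starts when STAR carries cholesterol into the mitochondrion, where CYP11A1 cuts the side chain and yields pregnenolone with electrons that ferredoxin, the product of *Fdx1*, hands on. In the endoplasmic reticulum, 3-beta hydroxysteroid dehydrogenases (*Hsd3b1*, *Hsd3b6*) and CYP17A1 turn pregnenolone into androstenedione, and POR supplies CYP17A1 with electrons. SRD5A1 reduces testosterone to dihydrotestosterone, LHCGR is the receptor for luteinizing hormone, and INSL3 is the peptide hormone that drives the transabdominal descent of the testis. In the mouse, fetal Leydig cells make little testosterone themselves, and neighbouring Sertoli cells carry out the last step with HSD17B3.

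After the filter of the study, 39350 of 68064 barcodes were kept as cells, between 4781 and 8569 per library, with 118475468 to 221675316 unique molecular identifiers (UMIs, each one captured mRNA molecule). Between 0.795% and 0.982% of the cells of a library had a barcode that also occurred in another library, 175 barcodes in all. Barcodes over the limit of 25% mitochondrial UMIs made up 24.4% and 28.3% of the dKO XY libraries, against 2.22% to 9.35% in the other 4. The knockout was visible in supporting cells, the lineage of Sertoli and granulosa cells, where *Amh* stood at 1998 and 1891 CPM in control XY against 18.3 and 15.7 CPM in dKO XY. *Inhbb* stood there at 158 and 183 CPM in control XY against 41.2 and 50.5 CPM in dKO XY, and reads outside a deleted stretch can remain. In Leydig-like cells *Amh* was low in both groups and overlapped, with 13.0 and 41.6 CPM in control XY against 12.7 and 20.8 CPM in dKO XY, whereas *Inhbb* had 57.8 and 68.8 against 12.4 and 22.4 CPM. CPM is the number of UMIs of a gene per 1000000 UMIs of the same cells, and is not divided by transcript length, since a molecule is counted once from its 3′ end whatever its length.

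The promoters of 4 of these genes are shown, namely both entries that hold the hexamer AGGTCA, of *Cyp11a1* and *Lhcgr*, and for contrast those of *Insl3* and *Hsd3b1*, which do not hold it. They were chosen after the matches were known. The entries of RefSeq on GRCm38.p6 run from 250 bases before the transcript start to 50 bases after it, and 8 of the 10 genes have 1 or more, 9 entries in all. Capitals mark AGGTCA, the hexamer that NR5A1 and other nuclear receptors bind, searched on both strands. The entries are given 5′ to 3′ on the strand of the gene, and lie at chr9:58014702-58015001 (plus strand) for *Cyp11a1*, chr17:88791965-88792264 (minus) for *Lhcgr*, chr8:71689002-71689301 (plus) for *Insl3* and chr3:98859745-98860044 (minus) for *Hsd3b1*.
Cyp11a1: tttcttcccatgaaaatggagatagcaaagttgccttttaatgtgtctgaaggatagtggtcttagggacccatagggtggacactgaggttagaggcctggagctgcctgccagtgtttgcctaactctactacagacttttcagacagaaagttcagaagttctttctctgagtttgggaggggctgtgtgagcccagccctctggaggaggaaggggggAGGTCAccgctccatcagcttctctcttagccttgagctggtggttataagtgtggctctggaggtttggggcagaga
Lhcgr: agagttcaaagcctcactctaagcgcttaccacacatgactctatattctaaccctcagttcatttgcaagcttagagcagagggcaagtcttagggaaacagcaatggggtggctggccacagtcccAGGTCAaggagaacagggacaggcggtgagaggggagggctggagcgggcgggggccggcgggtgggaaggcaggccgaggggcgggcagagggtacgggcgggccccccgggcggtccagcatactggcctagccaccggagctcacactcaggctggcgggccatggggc
Insl3: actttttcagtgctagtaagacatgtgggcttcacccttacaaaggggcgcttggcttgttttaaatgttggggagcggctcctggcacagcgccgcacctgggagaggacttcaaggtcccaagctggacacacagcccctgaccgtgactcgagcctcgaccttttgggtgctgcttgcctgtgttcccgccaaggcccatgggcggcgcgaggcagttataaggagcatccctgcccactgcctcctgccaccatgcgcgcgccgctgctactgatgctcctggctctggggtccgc
Hsd3b1: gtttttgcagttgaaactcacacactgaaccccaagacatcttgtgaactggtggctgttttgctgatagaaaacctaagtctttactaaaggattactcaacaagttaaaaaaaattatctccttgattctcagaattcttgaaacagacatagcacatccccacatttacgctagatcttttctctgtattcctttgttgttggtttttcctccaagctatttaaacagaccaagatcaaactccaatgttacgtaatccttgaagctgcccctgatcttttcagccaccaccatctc
AGGTCA occurred in 2 of the 9 entries, beginning 28 bases before the start in this entry of *Cyp11a1* and 122 bases before it in *Lhcgr*. Among all 32851 promoter entries, 16.3% hold it on one of the strands. The longer element CAAGGTCA, which contains AGGTCA, was in 0 of the 9 and in 1.56% of all entries. TATAAA on the strand of the gene was in 0 of the 9 and in 8.32% of all.

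Cells with these genes at high levels formed a cluster of 3315 cells, although the 10 genes and 30 further genes of steroid synthesis were left out of the variable genes. It is called Leydig-like here because 7 of 9 Leydig markers passed the limits for a marker, on a list that holds *Scarb1*, the lipoprotein receptor that takes up cholesterol, and *Ren1*, renin. Its leading genes outside the held-out ones were *Clps*, *C4b*, *Npy*, *Hao2* and *Adh1*, of which none is on the Leydig list. Adrenal cortex markers were present too, as has been described for fetal mouse testes, with 4 of 5 passing and a higher mean log2 fold (3.49) than the Leydig markers (2.94). *Cyp21a1*, adrenal 21-hydroxylase, was at 79.9 and 61.1 CPM in control XY against 58.6 and 96.5 CPM in dKO XY, whereas *Cyp11b2*, aldosterone synthase, had 1 UMI in the 4 libraries together. *Cyp11b1* was at 65.8 and 92.0 against 107 and 130 CPM, without overlap, and was not called in the test described below. *Mc2r* (18.1 and 23.4 against 21.9 and 25.9 CPM) and *Akr1b7* (28.4 and 17.8 against 32.0 and 16.6 CPM) overlapped.

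Leydig-like cells made up 11.2% (766 cells) and 12.9% (1106) of control XY libraries and 8.70% (709) and 12.9% (734) of dKO XY libraries. The group means were 12.1% ± 1.18 and 10.8% ± 2.95 (SD, n = 2), so the share differed by less than the spread between dKO XY libraries. The exact 95% intervals, which cover counting error only, ran from 10.5% to 12.0% and 12.2% to 13.6% in control XY and from 8.10% to 9.33% and 12.0% to 13.8% in dKO XY. Control XX had 0 of 5330 and 0 of 4781 such cells, which allows a share of up to 0.0563% and 0.0627%.

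**Figure D1:**
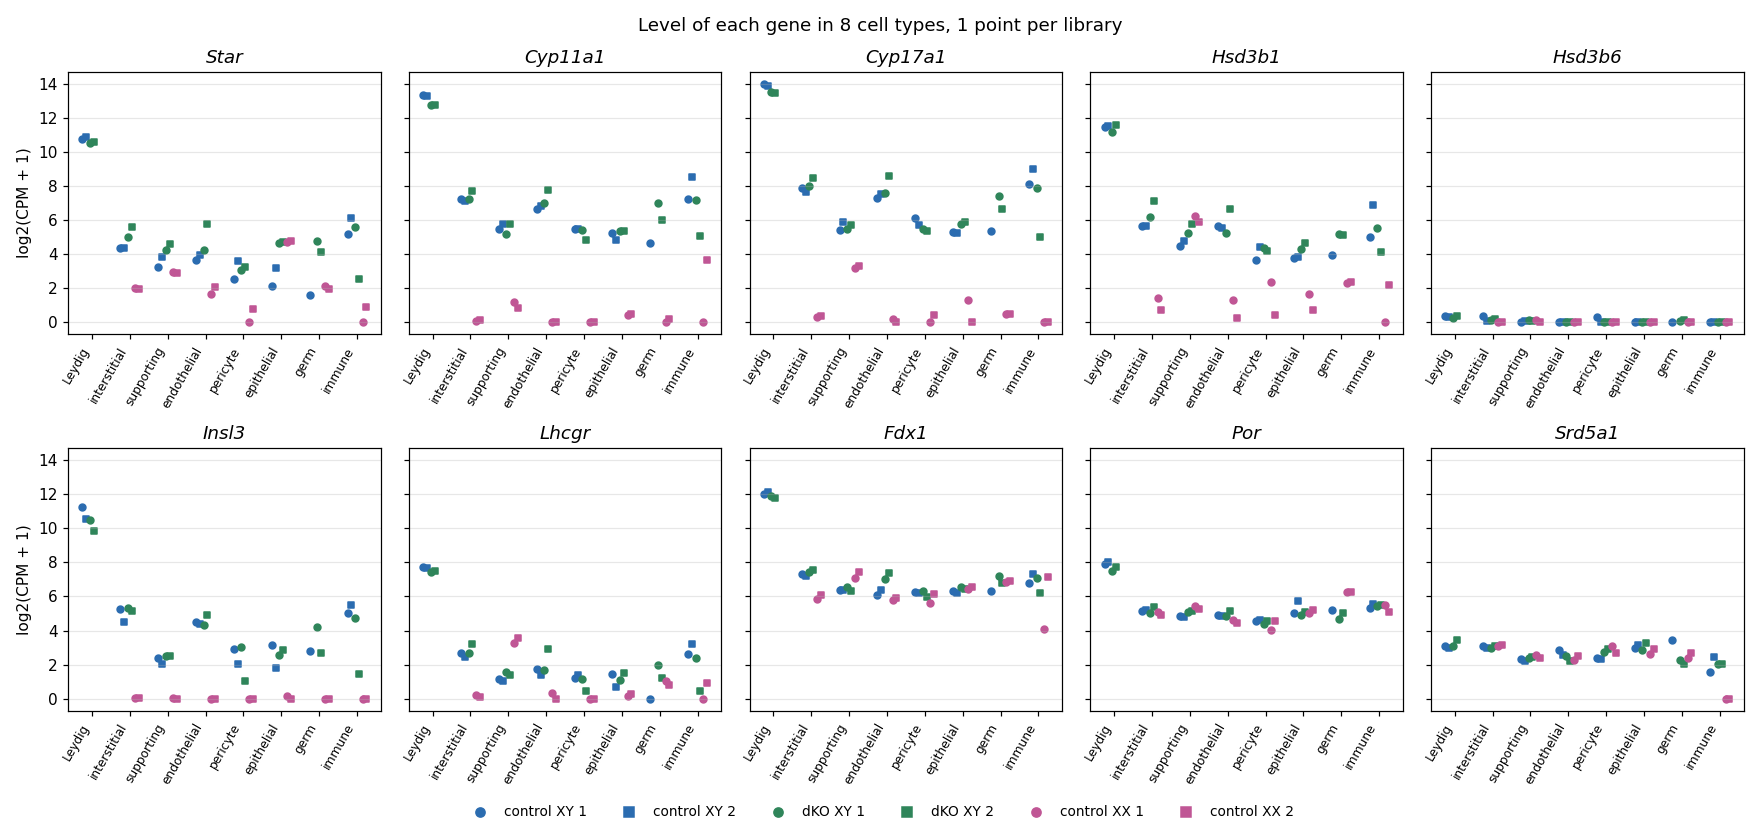
Level of the 10 genes as log2(CPM + 1) in 8 cell types, with 1 point per library (blue control XY, green dKO XY, pink control XX; circles replicate 1, squares replicate 2). *Star*, *Cyp11a1*, *Cyp17a1*, *Hsd3b1*, *Insl3*, *Lhcgr* and *Fdx1* stood highest in Leydig-like cells of every XY library, *Hsd3b6*, at no more than 0.291 CPM, stayed near 0, and *Srd5a1* lay at similar levels in most types.

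*Lhcgr* (chromosome 17, 88716481 to 88791990; GRCm38, as all positions here) stood at 212 and 201 CPM in control XY against 173 and 178 CPM in dKO XY Leydig-like cells. In the other cell types of control XY it was at most 8.31 CPM, in immune-like cells. *Star* (chromosome 8, 25806555 to 25815982) measured 1737 and 1879 CPM in control XY against 1476 and 1513 CPM in dKO XY Leydig-like cells. Neither of these 2 genes was called in the main fit of the test described below.

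The side chain cleavage gene *Cyp11a1* (chromosome 9, 58006411 to 58027023) reached 10146 and 9835 CPM in control XY Leydig-like cells and 6947 and 6974 CPM in dKO XY. *Fdx1* (chromosome 9, 51943306 to 51963556) reached 4149 and 4420 CPM against 3868 and 3563 CPM. *Fdx1* was also present where no Leydig cell was found, at 116 and 118 CPM in germ-like cells of control XX. Ferredoxin serves other mitochondrial enzymes as well.

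*Cyp17a1* (chromosome 19, 46667165 to 46673172) had the highest level of the 10 genes, at 16324 and 15069 CPM in control XY against 11762 and 11355 CPM in dKO XY Leydig-like cells. Its electron donor *Por* (chromosome 5, 135670033 to 135735326) was at 242 and 259 CPM against 181 and 214 CPM. *Por* was spread more evenly over cell types, with 75.7 and 75.6 CPM in control XX germ-like cells, which was its highest level outside Leydig-like cells.

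Of the 2 dehydrogenase genes, *Hsd3b1* (chromosome 3, 98852194 to 98859794) had 2788 and 2959 CPM in control XY against 2326 and 3105 CPM in dKO XY, and the groups overlapped. *Hsd3b6*, which lies 37750 bases away (chromosome 3, 98805504 to 98814443) and is known from adult Leydig cells, was at 0.270 and 0.231 CPM against 0.183 and 0.268 CPM, from 5 to 10 UMIs per library. The 2 genes share 0 of 453 stretches of 50 bases in the last 500 bases of their coding transcripts, where reads of this protocol fall, so reads of the 2 can be told apart there.

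*Srd5a1* (chromosome 13, 69573449 to 69611442) was low everywhere. Leydig-like cells had 7.43 and 6.92 CPM in control XY against 7.40 and 10.0 CPM in dKO XY, and interstitial-like cells of control XX had 7.62 and 7.73 CPM. *Insl3* (chromosome 8, 71689214 to 71690575) varied more than the enzymes between libraries of a group, with 2404 and 1521 CPM in control XY against 1414 and 900.02 CPM in dKO XY Leydig-like cells.

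The effect of the double knockout within Leydig-like cells was tested on summed UMIs with edgeR over 14444 genes, of which 330 were lower in dKO XY (2.28%) and 607 higher (4.2%). *Cyp11a1* and *Cyp17a1* were lower, 2 of the 9 genes tested (*Hsd3b6* did not pass the filter on low counts), and 7 were not called. *Cyp11a1* fell by 0.55 on the log2 scale (SE 0.08, adjusted p = 0.00913) and *Cyp17a1* fell by 0.47 (SE 0.09, adjusted p = 0.0208). The log2 change of *Insl3* was -0.78 (SE 0.26, adjusted p = 0.121), larger than that of the 2 enzymes but with a wider error. With 1 library left out it ran from -0.42 (without control XY replicate 1) to -1.17 (without dKO XY replicate 1), and was -1.09 without control XY replicate 2. Such a fit leaves 1 library in a group, so its error holds no spread between libraries of that group. *Insl3* was called lower without the filter on low counts. *Por* was at -0.37 (adjusted p = 0.0680), *Star* at -0.30 (0.0826), *Lhcgr* at -0.26 (0.120), *Fdx1* at -0.23 (0.199), *Hsd3b1* at -0.11 (0.680) and *Srd5a1* at 0.26 (0.424). Some of these calls moved with the settings. *Star* and *Por* were called lower with DESeq2, without the filter on low counts, without the 8% of cells with the highest doublet scores, at the resolution of 0.5 and with all variable genes (adjusted p from 0.0118 to 0.0461 for *Star* and from 0.00239 to 0.0482 for *Por*). *Por* was at -0.48 without dKO XY replicate 2. *Lhcgr* was called lower at the resolution of 0.5 (adjusted p = 0.0252) and with all variable genes (0.0300). The median over the 9 was -0.30, beside -0.01 over all genes tested. It was -0.43 at the resolution of 0.5 and -0.42 with all variable genes. At a limit of 10% mitochondrial UMIs it was -0.18, and it was -0.16 in the larger of 2 Leydig-like clusters described next.

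Both calls were lost when only cells with less than 10% mitochondrial UMIs were used, with log2 changes of -0.29 for *Cyp11a1* (adjusted p = 0.244) and -0.20 for *Cyp17a1* (0.486). In that set, *Star* had 1252 and 1129 CPM in control XY against 1414 and 1335 CPM in dKO XY, a log2 change of 0.22 that was not called (adjusted p = 0.327). The limit kept 68.5% and 53.4% of the control XY Leydig-like cells against 82.2% and 68.7% of those of dKO XY, whose median mitochondrial share was 7.99% and 9.52% against 6.09% and 8.37%. The call of *Cyp17a1* was also lost without the dKO XY library of replicate 2, at -0.42 (adjusted p = 0.0528).

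**Figure D2:**
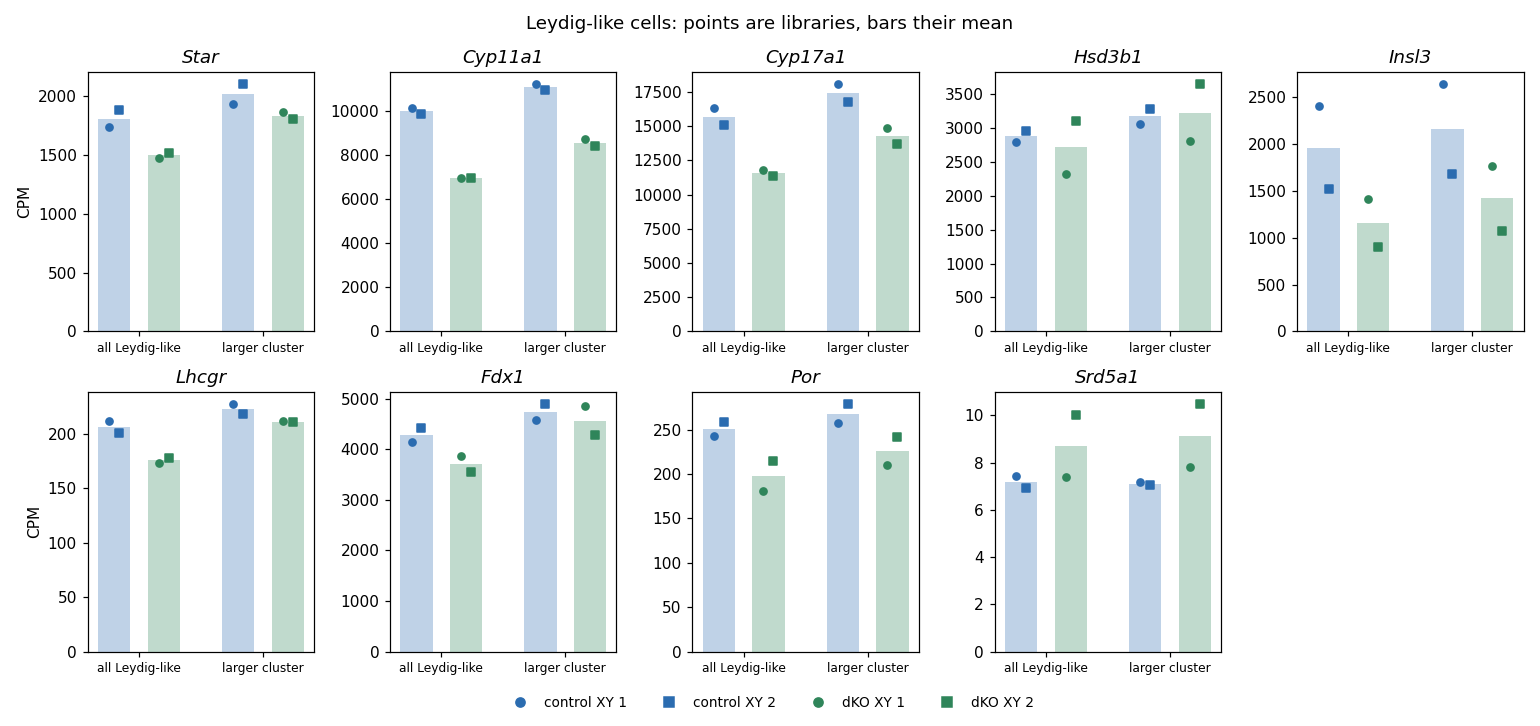
CPM of 9 genes in Leydig-like cells of control XY (blue) and dKO XY (green), for all these cells and for the larger of 2 clusters at a finer resolution; points are libraries and bars the mean of 2. *Cyp11a1* lay at 6947 and 6974 CPM in all dKO XY cells against 10146 and 9835 CPM in all control XY cells. In the larger cluster it lay at 8713 and 8416 against 11207 and 10965 CPM.

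At a finer resolution of clustering (0.5), Leydig-like cells fell into a larger cluster and a smaller one. The smaller cluster was led by *Cyp26b1*, a retinoic acid hydroxylase, and *Vsnl1*, and its levels were lower, with *Cyp17a1* at 6218 and 6738 CPM in control XY against 4244 and 3398 CPM in dKO XY. The smaller cluster was 18.9% and 21.0% of the Leydig-like cells of control XY libraries, against 34.1% and 26.3% of those of dKO XY libraries. Further cells of the smaller cluster had counted as interstitial-like (115 and 121 in control XY against 192 and 225 for dKO XY). With them it made up 29.5% and 28.9% of the cells of both clusters in control XY against 48.8% and 44.2% for dKO XY. Within the larger cluster, a set chosen after the data were seen, the log2 change was -0.40 for *Cyp11a1* (adjusted p = 0.0548) and -0.31 for *Cyp17a1* (adjusted p = 0.151), neither of them called. *Cyp17a1* stood there at 18064 and 16774 CPM in control XY against 14897 and 13673 CPM in dKO XY, with no overlap. *Insl3* was at 2640 and 1685 CPM against 1768 and 1077 CPM, which overlapped, and *Lhcgr* was at 227 and 218 CPM against 211 and 211 CPM.

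Markers of other cell types differed with the genotype in the Leydig-like sums, in both directions. The 8 granulosa markers, all with UMIs, summed to 125 and 153 CPM in control XY against 350 and 469 CPM in dKO XY. The 6 germ cell markers summed to 5.36 and 6.04 against 21.8 and 31.3 CPM, and the 6 erythroid markers to 8.53 and 13.0 against 51.1 and 62.4 CPM. The 9 Sertoli markers summed to 53.1 and 96.2 against 136 and 128 CPM and the 7 markers of the supporting lineage to 180 and 192 against 289 and 275 CPM. Sums were also higher in both dKO XY libraries for adrenal cortex (192 and 194 against 219 and 269 CPM), endothelial (24.4 and 25.9 against 32.8 and 30.5), pericyte (16.7 and 20.6 against 27.6 and 24.3), epithelial (6.80 and 10.1 against 14.5 and 18.6) and mesonephric tubule markers (1.08 and 2.85 against 7.48 and 6.70 CPM). Of the adrenal cortex genes, *Cyp21a1*, *Mc2r* and *Akr1b7* each overlapped between the groups, and *Cyp11b1* did not but was not called. The 8 interstitial markers were lower, at 532 and 608 against 436 and 443 CPM, and the 8 immune markers overlapped, at 16.8 and 10.0 against 16.02 and 5.87 CPM. The 9 Leydig markers summed to 10383 and 9719 CPM against 5251 and 3480 CPM, of which *Ren1* made up 6934 and 6276 against 2532 and 694 CPM. Their part in the change of *Cyp11a1* and *Cyp17a1* was not tested.

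Cells were also compared after each was thinned to 5000 UMIs, which left out none of the Leydig-like cells. The median Leydig-like cell had 49 and 47 UMIs of *Cyp11a1* in control XY and 32 and 32 in dKO XY, and 77 and 70 against 57 and 53 UMIs of *Cyp17a1*. The 10th percentile of *Cyp17a1* was 22 and 19 UMIs in control XY against 1 and 2 UMIs in dKO XY, and the 90th percentile was 123 and 117 against 106 and 101 UMIs. Leydig-like cells with no *Insl3* UMI at this depth made up 2.35% and 3.98% of control XY against 11.8% and 16.1% of dKO XY, and those with no *Cyp11a1* UMI 1.96% and 2.89% against 8.32% and 6.95%. Before thinning, the median depth was 35194 to 41098 UMIs. These shares describe cells and were not tested.

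**Figure D3:**
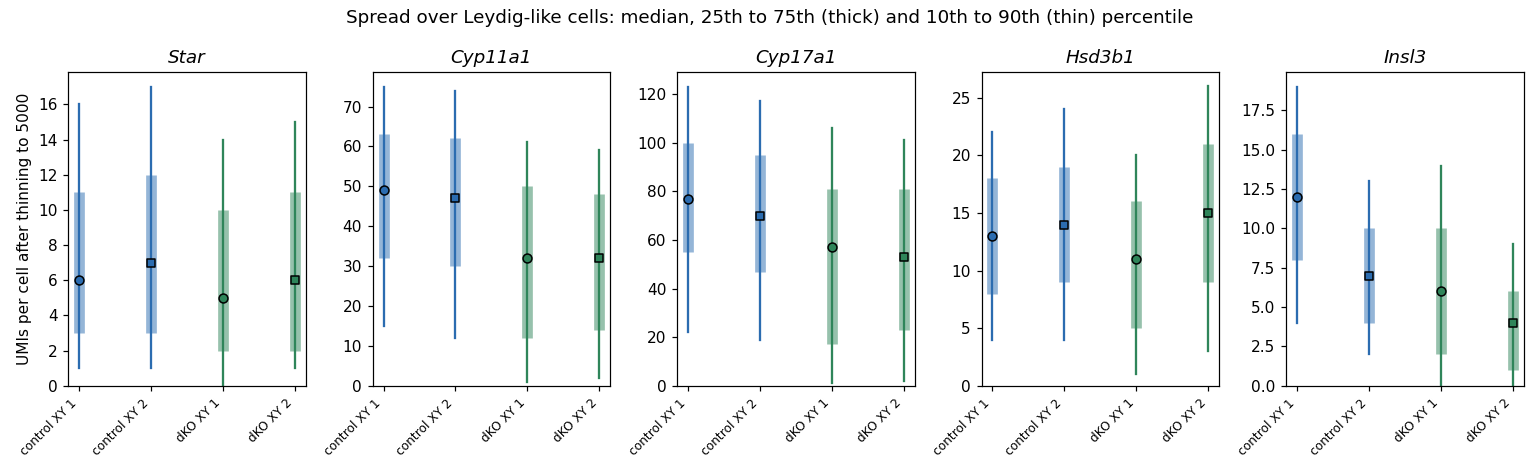
UMIs per Leydig-like cell after thinning to 5000 UMIs, for 5 genes in the 4 XY libraries (blue control XY, green dKO XY); the point is the median, the thick bar the 25th to 75th percentile and the thin bar the 10th to 90th percentile over cells. The 10th percentile of *Cyp17a1* lay at 22 and 19 UMIs in control XY and at 1 and 2 UMIs in dKO XY.

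Across the cells of each library, likeness was measured as the Pearson r of log2(UMIs + 1). *Cyp11a1* and *Cyp17a1* went together most closely, with r between 0.89 and 0.91 in the 4 libraries (709 to 1106 cells each, all thinned to the same depth). *Cyp11a1* correlated with *Fdx1* at 0.73 to 0.81, with *Hsd3b1* at 0.71 to 0.77, with *Insl3* at 0.67 to 0.76 and with *Star* at 0.66 to 0.72. With *Lhcgr* the range was 0.20 to 0.37 and with *Por* 0.20 to 0.35, 2 genes with a median of at most 1 UMI per cell. These values describe cells that share a library and are not replicates.

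In cell types other than Leydig-like cells, the XY libraries held low levels of most of these genes, and the level as a percent of that in Leydig-like cells of the same library is given for each gene, since free RNA from 1 source keeps its genes in 1 ratio. Endothelial-like cells held 0.960% to 3.32% of the Leydig-like level of *Cyp17a1*, 0.991% to 3.04% of *Cyp11a1*, 0.897% to 3.27% of *Insl3*, 0.795% to 3.74% of *Lhcgr*, 0.674% to 3.54% of *Star* and 1.55% to 3.21% of *Hsd3b1*. Immune-like cells ranged from 0.269% to 3.37% for *Cyp17a1* over the 4 libraries and pericyte-like cells from 0.343% to 0.417%. *Por*, at 11.0% to 15.9% in endothelial-like cells, and *Srd5a1*, at 35.8% to 86.0%, stood far above these ratios. In control XX, where no Leydig-like cell was found, *Cyp11a1* was at 0 CPM in endothelial-like and pericyte-like cells of both libraries. In the order of control XY means, *Cyp17a1* stood at 392 ± 165 CPM (SD, n = 2) in immune-like, 213 ± 23.7 in interstitial-like, 168 ± 16.2 in endothelial-like, 59.9 ± 11.5 in pericyte-like and 48.9 ± 11.6 CPM in supporting cells. Germ-like cells, with 1 library of at least 10 cells, stood at 40.4 CPM and epithelial-like cells at 37.1 ± 0.896 CPM. The libraries of pericyte-like and supporting cells overlapped and the germ-like value lay within 1 SD of the supporting mean, and the other neighbours in this order did not overlap. How much of these levels was free RNA was not tested.

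**Figure D4:**
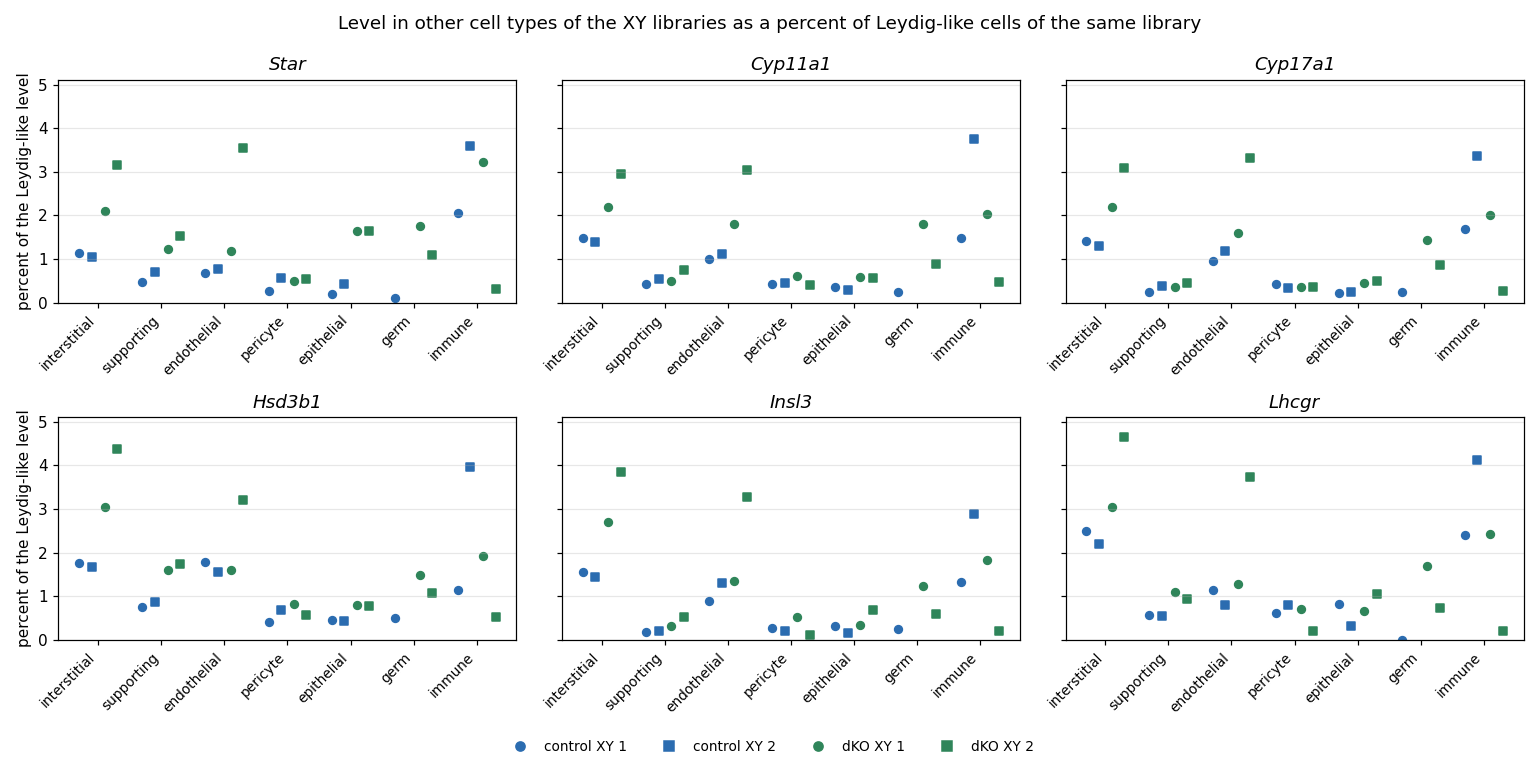
Level of 6 genes in 7 other cell types as a percent of the level in Leydig-like cells of the same library, for control XY (blue) and dKO XY (green). In supporting cells, *Cyp17a1* lay between 0.249% and 0.444% whereas *Hsd3b1* lay between 0.755% and 1.73%, and in interstitial-like cells the dKO XY library of replicate 2 was highest for all 6 genes, from 2.95% for *Cyp11a1* to 4.65% for *Lhcgr*.

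Fetal Leydig cells arise from interstitial progenitors. Interstitial-like cells of dKO XY were set against those of control XY over 16984 genes, of which 723 (4.26%) were higher in dKO XY. *Star* was the only one of the 10 genes called, at 19.8 and 19.7 CPM in control XY against 31.1 and 47.9 CPM in dKO XY. Both dKO XY libraries lay above control XY, with a log2 change of 0.99 (SE 0.17, adjusted p = 0.0144). Marker sums differed in the same cells, with 8.68 and 15.0 CPM for the 6 erythroid markers in control XY against 106 and 122 CPM in dKO XY, 4.59 and 4.39 against 26.6 and 34.5 CPM for the 6 germ cell markers and 5535 and 5199 against 3451 and 3287 CPM for the 8 interstitial markers. The 9 Leydig markers summed to 1840 and 1558 CPM against 1033 and 960 CPM, although *Fdxr* and *Scarb1* on that list were called higher in dKO XY. The part of any of these markers in the change of *Star* was not tested. The class pools 3 clusters, of which one led by *Mxd3* and *Aspm*, a spindle protein of dividing cells, held 31.2% and 33.9% of it in control XY against 37.3% and 47.8% for dKO XY. *Star* was highest in that cluster, with 36.3 and 31.6 CPM in control XY against 51.5 and 71.9 CPM for dKO XY. *Hsd3b1* was at 49.0 and 49.3 CPM against 70.9 and 136 CPM, a change of 1.06 that was not called (adjusted p = 0.0864). The call of *Star* was lost without either control XY library (adjusted p = 0.0737 and 0.0653), while without the 8% of cells with the highest doublet scores *Cyp11a1*, *Cyp17a1* and *Hsd3b1* were called higher as well, with log2 changes of 0.89, 1.17 and 1.64. Without the cells of the smaller Leydig-like cluster, at the resolution of 0.5, *Star* was at 7.29 and 9.29 against 11.9 and 11.0 CPM, which was not called (adjusted p = 0.152), and *Cyp11a1* and *Cyp17a1* were lower in dKO XY, with log2 changes of -0.52 (adjusted p = 0.0477) and -0.50 (adjusted p = 0.0407). *Cyp11a1* then stood at 34.7 and 43.0 CPM against 27.6 and 26.6 CPM, which is 0.310% to 0.392% of the level in the larger Leydig-like cluster of the same library.

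The difference of the dKO XY effect between Leydig-like and interstitial-like cells was tested over 16735 genes, of which 6.55% were lower in Leydig-like cells. For 8 of the 10 genes the effect was lower in Leydig-like cells, all but *Hsd3b6* and *Srd5a1*, and the log2 difference ran from -0.42 for *Por* to -1.28 for *Star*. At the resolution of 0.5, *Star*, *Hsd3b1* and *Por* were still called, whereas the difference was -0.17 for *Cyp11a1* (adjusted p = 0.243), -0.09 for *Cyp17a1* (0.558) and -0.09 for *Fdx1* (0.379).

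Interstitial-like cells of control XX were compared with those of control XY, a comparison that shares the control XY libraries with the one above. Different clusters held the class in the 2 groups. The cluster led by *Il33* and *Gdf10* had 99.2% and 99.9% of the interstitial-like cells of control XX (1531 and 2956 cells) but 5.22% and 3.95% of those of control XY (277 and 250), which lay mostly in a cluster led by *Sostdc1* and *Msc* (63.6% and 62.1%) and in the one led by *Mxd3*. Of 16984 genes, 13.3% were lower in control XX, and 7 of the 10 genes were: *Star*, *Cyp11a1*, *Cyp17a1*, *Hsd3b1*, *Insl3*, *Lhcgr* and *Fdx1*. Over both control XX libraries, *Cyp11a1* had 7 UMIs against 37634 in control XY, a ratio of CPM of 2106 (95% counting interval 1022 to 5238). *Insl3* had 2 UMIs against 7659, *Lhcgr* 12 against 1264 and *Cyp17a1* 29 against 55565. Most control XY UMIs of *Cyp11a1* (16309 and 15211) lay in the cluster led by *Mxd3*, which held 9 and 2 control XX cells. The control XY class also included the 115 and 121 cells of the smaller Leydig-like cluster, which had no counterpart in control XX. *Fdx1* was 2.40 times higher in control XY (2.34 to 2.47), while *Por* and *Srd5a1* were not called, with ratios of 1.15 and 0.926. *Hsd3b6* had 0 UMIs in control XX and was at least 5.74-fold higher in control XY, counting 3 UMIs for 0 over the group, and was not called (adjusted p = 0.0615). Of its 44 UMIs in control XY, 37 lay in replicate 1, and the bound was 1.78-fold without that library and 9.91-fold without replicate 2. In replicate 1, 18 UMIs of *Hsd3b6* (2.39 CPM) lay in the 277 cells of the cluster led by *Il33*. The median log2 change of the 10 genes was -5.39, or -3.98 with *Hsd3b6* at its bound. Within the cluster led by *Il33*, *Cyp11a1* was at 30.5 and 43.6 CPM in control XY against 0.0283 and 0.0902 CPM in control XX, while *Fdx1*, at 70.7 and 76.8 against 55.9 and 67.1 CPM, was closer than over the class. These levels within the cluster were not tested. Control XX held no Leydig-like cells, and the part of free RNA in the control XY levels was not tested.

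Supporting cells, which are mostly Sertoli-like in control XY and granulosa-like in control XX, had another pattern of levels. Of 15971 genes, 9.58% were higher in dKO XY, and 2 of the 9 tested genes were, *Hsd3b1* and *Star*. *Hsd3b1* measured 21.0 and 25.7 CPM in control XY, 37.1 and 53.7 CPM in dKO XY and 72.7 and 58.6 CPM in control XX. Both dKO XY libraries lay between the other groups, and the rise over control XY was 0.96 on the log2 scale (SE 0.21, adjusted p = 0.0124). *Star* was at 8.37 and 13.2 CPM in control XY against 18.0 and 23.1 CPM in dKO XY, a rise of 0.91 (SE 0.22, adjusted p = 0.0216), but at 6.81 and 6.47 CPM in control XX. In the same sums the 8 granulosa markers had 893 and 872 CPM in control XY against 2256 and 2707 CPM in dKO XY and the 6 germ cell markers 74.7 and 22.8 against 158 and 230 CPM. The 8 interstitial markers had 842 and 922 against 364 and 288 CPM, and the 9 Leydig markers 705 and 724 against 420 and 380 CPM. Of the Leydig list, *Fdxr* was at 278 and 287 against 174 and 155 CPM and *Scarb1* at 71.3 and 90.7 against 63.0 and 71.9 CPM. *Nr5a1*, on the same list, overlapped, at 70.3 and 85.9 against 75.7 and 87.7 CPM. The part of these markers in the rise of *Hsd3b1* and *Star* was not tested. *Cyp17a1*, at 40.7 and 57.1 against 42.4 and 50.4 CPM, and *Cyp11a1*, at 42.7 and 54.0 against 34.7 and 52.7 CPM, were not called, with adjusted p of 0.830 and 0.745. Relative to Leydig-like cells of the same library, *Hsd3b1* in supporting cells stood at 0.755% and 0.869% in control XY and 1.59% and 1.73% in dKO XY. Both calls were lost without the control XY library of replicate 1 (adjusted p = 0.113 for *Star* and 0.0825 for *Hsd3b1*) and without the dKO XY library of replicate 2 (0.0997 and 0.0546). *Star* was also not called at the limit of 10% mitochondrial UMIs (0.0682) or with all variable genes (0.0511).

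Compared with control XY, supporting cells of control XX had 25% of the genes tested higher and 23.6% lower, and 4 of the 9 genes higher and 4 lower. *Lhcgr* stood at 1.20 and 1.08 CPM in control XY, 1.91 and 1.64 CPM in dKO XY and 8.79 and 10.6 CPM in control XX, a rise of 3.05 on the log2 scale from control XY to control XX (SE 0.26). *Fdx1* was at 80.8 and 80.9 CPM against 137 and 169 CPM in control XX, and *Hsd3b1* rose by 1.43 and *Por* by 0.50. In the same sums the 8 granulosa markers had 893 and 872 CPM in control XY against 4564 and 4167 CPM in control XX, and the 9 Sertoli markers 3050 and 2712 against 304 and 343 CPM. The 7 epithelial markers had 55.1 and 46.4 against 209 and 243 CPM, the 8 interstitial markers 842 and 922 against 133 and 327 CPM, and the 9 Leydig markers 705 and 724 against 282 and 318 CPM. Of the Leydig list, *Fdxr* stood at 145 and 146 CPM and *Nr5a1* at 48.0 and 40.8 CPM in control XX, where no Leydig-like cell was found. The part of these markers in the changes was not tested. *Cyp11a1*, with 1.29 and 0.796 CPM in control XX, *Cyp17a1*, *Insl3* and *Star* were lower, the last by 0.78 on the log2 scale. *Cyp17a1* nonetheless stood at 7.94 and 8.92 CPM in control XX supporting cells, beside 0.252 and 0.300 CPM in interstitial-like cells of the same libraries. *Srd5a1* was not called, with a log2 change of 0.22. The call of *Star* was lost without the control XY library of replicate 2 (adjusted p = 0.288) and without the control XX library of replicate 2 (0.0631), and that of *Por* without the control XX library of replicate 1 (0.0740) and without the control XY library of replicate 2 (0.0797).

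The share of supporting cells with an *Hsd3b1* UMI, after thinning to 5000 UMIs, was 9.29% and 10.5% in control XY libraries. It was 16.5% and 17.8% for dKO XY, and 23.8% and 21.6% for control XX. Unthinned shares ran from 41.6% in control XY to 61.0% in dKO XY. Endothelial-like cells, which should lack the gene, had thinned shares of 6.12% and 8.39% in control XY, of 7.03% and 14.9% for dKO XY, and of 1.35% and 0% for control XX, where 0 of 117 cells allows up to 2.56%. Median depths were 18991 to 31037 UMIs in supporting and 25907 to 43804 UMIs in endothelial-like cells. The supporting share lay above the endothelial-like share in all 6 libraries, with the widest gap in control XX. The order did not hold by level. In the XY libraries, *Hsd3b1* stood at 0.755% to 1.73% of the Leydig-like level in supporting cells and at 1.55% to 3.21% in endothelial-like cells. For *Lhcgr*, 4.04% and 4.86% of control XX supporting cells had a UMI at this depth, beside 0 of 222 and 0 of 117 endothelial-like cells, which allows up to 1.35% and 2.56%. In the XY libraries 0.739% to 1.15% of supporting cells had one, beside 0.699% to 4.13% of endothelial-like cells.

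Supporting cells comprised a Sertoli-like cluster, a granulosa-like cluster and a cluster led by *Myl1*, *Cck* and *Pnmt*. The marker rule named the last granulosa too, with 4 of 8 granulosa markers passing, against 8 of 8 in the cluster called granulosa-like here. Most supporting cells of control XY lay in the Sertoli-like cluster (248 and 516 cells), those of control XX in the granulosa-like cluster (3011 and 1187), and dKO XY had 782 and 494 Sertoli-like cells, 423 and 431 cells of the cluster led by *Myl1*, and 99 and 30 granulosa-like cells. In granulosa-like cells, *Hsd3b1* stood at 62.2 and 67.2 CPM in dKO XY and at 72.3 and 58.4 CPM in control XX, which overlapped. In Sertoli-like cells it stood at 21.4 and 26.3 CPM in control XY against 29.8 and 43.4 CPM in dKO XY. *Lhcgr* was at 4.85 and 4.73 CPM in dKO XY granulosa-like cells, 8.80 and 10.7 CPM in those of control XX and 0.813 to 1.29 CPM in Sertoli-like cells. *Star* was highest in the cluster led by *Myl1*, with 35.1 and 36.3 CPM in dKO XY. *Cyp11a1* (62.7 and 85.7 CPM) and *Insl3* (10.8 and 7.09 CPM) were at their highest mean there too, while *Cyp17a1* was at 54.3 and 56.5 CPM there but at 37.6 and 91.8 CPM in dKO XY granulosa-like cells. The few control XY cells of the cluster led by *Myl1* (12 and 19) had 19.3 and 10.9 CPM of *Star* and 40.7 and 38.2 CPM of *Cyp11a1*. These levels describe clusters and were not tested.

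**Figure D5:**
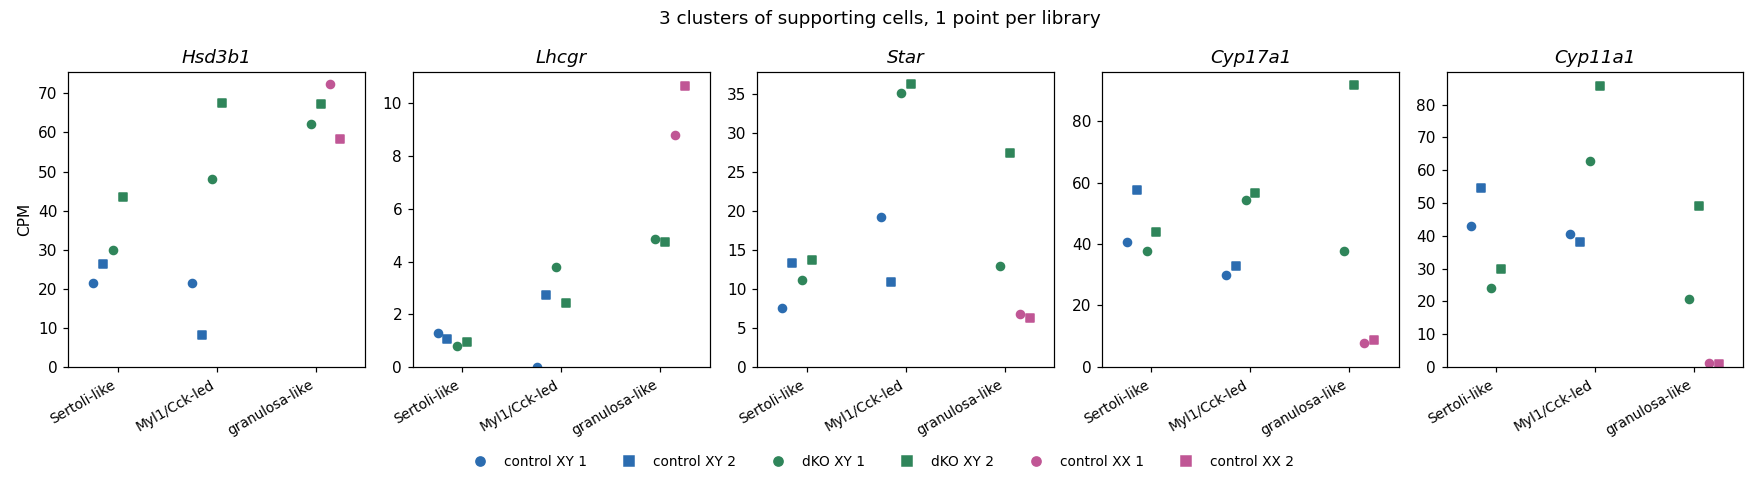
CPM of 5 genes in 3 clusters of supporting cells, 1 point per library with at least 10 cells of the cluster (blue control XY, green dKO XY, pink control XX; circles replicate 1, squares replicate 2). *Hsd3b1* lay between 21.4 and 43.4 CPM in Sertoli-like cells and between 58.4 and 72.3 CPM in granulosa-like cells, whereas *Cyp11a1* was near 0 in control XX.

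*Star* was also present in epithelial-like cells, which carried markers of the epithelium that covers the gonad. It was at 24.9 and 26.2 CPM there in control XX and at 24.3 and 24.8 CPM in dKO XY, and at 3.43 and 8.03 CPM in control XY, which had 30 and 41 such cells with 4 and 13 UMIs. At 5000 UMIs, 10.0% and 7.96% of these cells had a *Star* UMI in control XX, against 13.4% and 10.1% for dKO XY and 3.33% and 2.44% for control XY, beside 0.450% and 0.855% of control XX endothelial-like cells. In the XY libraries the level was 0.197% to 1.65% of the Leydig-like level in epithelial-like cells, beside 0.674% to 3.54% in endothelial-like cells. The part of free RNA in the XY levels was not tested. The types were not tested against each other, since the clusters were found from the same cells.

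In endothelial-like cells, 0.267% of 11997 genes were higher in dKO XY, and *Fdx1* was the only one of the 9 tested genes called. It measured 67.9 and 81.4 CPM in control XY, 127 and 164 CPM in dKO XY and 53.7 and 58.4 CPM in control XX, a log2 change of 0.96 against control XY (SE 0.15, adjusted p = 0.0155). The call was lost without the 8% of cells with the highest doublet scores, where the change was 0.15 (adjusted p = 0.827), at the limit of 10% mitochondrial UMIs (0.0586) and without either control XY library (0.178 and 0.0828).

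Of the 30 further genes of cholesterol supply, steroid conversion and their regulation, 27 were tested in Leydig-like cells. Of these, 2 were higher in dKO XY, 5 were lower and 20 were not called, beside 4.2% higher and 2.28% lower over all genes tested, with a median log2 change of -0.03. *Hsd11b2*, which inactivates glucocorticoids, was at 13.0 and 15.8 CPM in control XY against 35.2 and 40.7 CPM in dKO XY, a rise of 1.37 (SE 0.12, adjusted p = 0.00171). *Tspo*, a protein of the outer mitochondrial membrane, was at 71.7 and 66.5 CPM against 104 and 101 CPM and rose by 0.55 (adjusted p = 0.0137). *Hsd17b1*, which interconverts 17-keto and 17-hydroxy steroids, was at 15.0 and 17.6 CPM against 6.05 and 4.20 CPM and fell by 1.71 (SE 0.19, adjusted p = 0.00368). Its level was higher in supporting cells, at 291 and 245 CPM in control XY against 21.8 and 12.2 CPM in dKO XY. The part of free RNA in its Leydig-like levels was not tested. Of the others, the cholesterol carrier *Stard4* fell by 0.50, *Hsd17b7*, which also acts in cholesterol synthesis, by 0.48 and *Scarb1* by 0.37 on the log2 scale.

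Outside Leydig-like cells, named here after their values were seen, interstitial-like cells of dKO XY had 4 of 28 tested list genes higher than control XY (*Fdxr*, *Mc2r*, *Scarb1* and *Soat1*, with log2 changes from 0.52 to 1.59) and 2 lower, among them *Hsd17b1* at -2.03, beside 4.26% and 2.98% of all genes tested. Supporting cells of dKO XY had 3 of 27 higher (*Nr0b1* at 2.13, *Soat1* at 0.95 and *Tspo* at 0.49) and 4 lower, among them *Hsd17b1* at -3.97, *Hsd17b3* at -1.24 and *Fdxr* at -0.78, beside 9.58% higher and 6.82% lower over all genes. In interstitial-like cells of control XX, 5 of 28 were higher and 12 lower, beside 12% and 13.3% of all genes. In supporting cells of control XX, 8 of 27 were higher and 12 lower, beside 25% and 23.6%, and *Hsd17b3*, the enzyme that completes testosterone, was at -9.02 there. In endothelial-like cells, the lowest adjusted p of the 23 tested was 0.0751, for *Fdxr*. For the difference of the dKO XY effect between Leydig-like and interstitial-like cells, 3 of 29 were higher and 13 lower, beside 5.46% and 6.55% of all genes.

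Over 45 sums of library and cell type and 13150 genes, likeness was measured as the Pearson r of log2(CPM + 1), and the nearest gene outside the 10 is given for 9 of them. *Ren1* was nearest to *Cyp11a1* (Pearson r = 0.94), *Cyp17a1* (0.94) and *Insl3* (0.93), *Hao2* to *Star* (0.94) and *Hsd3b1* (0.94), and *Tm7sf2*, a sterol reductase of cholesterol synthesis, to *Lhcgr* (0.95), *Fdx1* (0.95) and *Por* (0.89). *Hsd3b6* was nearest to *Slc6a15* (0.80). The sums of a library share depth and free RNA, so these values are a description. In dKO XY Leydig-like cells *Ren1* fell by 2.05 on the log2 scale (SE 0.49, adjusted p = 0.0485) and *Tm7sf2* by 0.57 (adjusted p = 0.0219), while *Hao2*, at 381 and 425 CPM against 340 and 425 CPM, was not called (adjusted p = 0.671).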

How the data were processed

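Gonads at E15.5 were studied by 10x Genomics single cell mRNA sequencing, in 2 libraries per group. The deposited files hold raw UMI counts by gene symbol and barcode, which the authors made with Cell Ranger and corrected for barcode swapping. The submitters' processing notes also name Seurat 4.0 and mm10. The 10 genes and all gene lists were chosen with earlier results of these data known.

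Genes not listed for a library were set to 0. The cell filter of the study was applied: over 2500 but under 9000 genes, under 25% mitochondrial UMIs and under 20% *Hbb* UMIs. Seurat 5.3.0 in R 4.3.3 gave the clusters (3000 variable genes, less those of the 10 genes and the 30 pathway genes among them, 20 dimensions, resolution 0.21). A cluster was named from at least 3 passing markers, each with a UMI in 10% of its cells and a level 1.5 times that of other cells. Leaving the adrenal cortex list out of the naming was decided after the data were seen. Scrublet (scanpy 1.11.5) marked 0 to 71 cells of a library by its automatic threshold, which did not work, so no doublets were removed.

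The UMIs of each cell type were added up within a library where there were 10 cells or more. Sums were tested with edgeR 4.0.16 (filterByExpr, TMM, glmQLFit, glmQLFTest), with all 6 libraries sharing 1 estimate of the spread. Leydig-like cells and the difference of effects used the 4 XY libraries, the latter with library as a block. P-values were adjusted by Benjamini-Hochberg over all genes tested and called under 0.05. SE is the log2 change divided by the square root of F. With 2 libraries a group, an exact permutation test cannot pass this threshold. The scripts were tested on simulated data with known changes. Counting intervals and the limit of 3 counts for a value of 0 cover counting error only.

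The genes named are the 10, the pathway genes called in Leydig-like cells, and for each of the 10 the gene with the highest r. Some genes under this rule are not reported here. Alternatives were DESeq2 1.42.0, RLE scaling, a replicate block, testing every gene without a filter, fitting only the compared groups, a mitochondrial limit of 10%, leaving out the highest doublet scores, resolution 0.5, all variable genes, thinning to 10000 UMIs and leaving out each library in turn. The larger Leydig-like cluster alone and the crossed replicate numbers were added after the data were seen. Positions come from GENCODE M21 on GRCm38, and the annotation used by the authors is not given in the sources used here. Figures were drawn with matplotlib 3.10.9.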

Additional observations from a re-analysis of the deposited data

Results flagged for a closer look

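The dKO XY effect was lower in Leydig-like than in interstitial-like cells for 8 of the 10 genes, beside 6.55% of the 16735 genes tested. The test was edgeR's of the term for genotype by cell type, with library as a block. The log2 difference was -1.28 for *Star* (SE 0.16), -1.15 for *Insl3* (SE 0.14), -1.13 for *Hsd3b1* (SE 0.14), -0.97 for *Cyp17a1* (SE 0.13), -0.85 for *Cyp11a1* (SE 0.12), -0.73 for *Lhcgr* (SE 0.17), -0.49 for *Fdx1* (SE 0.09) and -0.42 for *Por* (SE 0.06), with 2 libraries a group. At the resolution of 0.5, where the smaller Leydig-like cluster no longer counted as interstitial-like, *Cyp11a1*, *Cyp17a1*, *Insl3*, *Lhcgr* and *Fdx1* lost this call. At the limit of 10% mitochondrial UMIs it was lost for *Star*, *Cyp11a1*, *Cyp17a1*, *Lhcgr*, *Fdx1* and *Por*. Leaving out 1 control XY library ended it for *Lhcgr* (without replicate 2, -0.64) and *Por* (without replicate 1, -0.41). Interstitial-like cells held 1.05% to 3.17% of the Leydig-like level of *Star*, 1.43% to 3.85% of *Insl3* and 13.9% to 19.2% of *Por*. Endothelial-like cells held 0.674% to 3.54%, 0.897% to 3.27% and 11.0% to 15.9%. The part of free RNA in these differences was not tested.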

How the results depend on the processing

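With 2 libraries a group, single libraries decided many calls, and the causes were not tested. Of the values for single genes, 821 kept their direction and side of the threshold or, where untested, moved by less than the spread between replicates. Another 41 lost a call, 44 gained one, 49 turned direction and 50 levels or shares moved by more than that spread. Of the summary values, 81 held in the same sense and 37 moved.

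The number of genes called in Leydig-like cells (937) was 2148 without the filter on low counts, 1498 at resolution 0.5, 1465 with all variable genes and 518 in the larger Leydig-like cluster, and 808 to 1954 when 1 library was left out. *Cyp11a1* and *Cyp17a1* lost their calls at the limit of 10% mitochondrial UMIs and in the larger cluster, and *Star* and *Por* gained one with DESeq2 (adjusted p = 0.0295 and 0.0153) and under 4 other settings each, leaving out libraries and the replicate block apart. Leaving out 1 library gave 331 to 1300 called genes in interstitial-like cells of dKO XY (1229 in all), lowest without control XY replicate 1, 2638 to 4555 in those of control XX (4297), 1112 to 2595 in supporting cells of dKO XY (2619), 5481 to 7814 in those of control XX (7751), 17 to 123 in endothelial-like cells (72) and 879 to 2390 for the difference of effects (2010). Endothelial-like cells had 380 without the filter on low counts and 120 with only the compared groups, and the difference of effects had 571 at the mitochondrial limit of 10%.

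The replicate numbers are shared between groups, but nothing says that they mark a litter or a day, and same-numbered libraries deviated together with r from -0.13 to 0.13. With the replicate block, 2640 genes were called in Leydig-like and 728 in interstitial-like cells of dKO XY, and *Star*, *Insl3*, *Lhcgr*, *Fdx1* and *Por* gained a call in Leydig-like cells. With the numbers of control XX crossed, 5834 genes were called in interstitial-like and 8686 in supporting cells.

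Summed over the 10 genes, the level in control XY Leydig-like cells (37080 CPM) was 39184 CPM without the highest doublet scores, 29494 CPM at the mitochondrial limit of 10%, 34480 CPM at resolution 0.5 and 35101 CPM with all variable genes. That in dKO XY (27983 CPM) was 29436, 26082, 23972 and 24613 CPM. The share of Leydig-like cells in control XY was 8.03% at the mitochondrial limit and 13.6% at resolution 0.5, and in dKO XY 13.8% at resolution 0.5. Thinned to 10000 UMIs, 18.2% of control XY, 28.1% of dKO XY and 37.1% of control XX supporting cells had an *Hsd3b1* UMI.

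These log2 changes turned direction. In Leydig-like cells at the mitochondrial limit, *Star* was at 0.22, *Hsd3b1* at 0.067 and *Fdx1* at 0.12, and with 1 library left out *Hsd3b1* ran from -0.31 to 0.067. In interstitial-like cells of dKO XY at resolution 0.5, *Cyp11a1* was at -0.52, *Cyp17a1* at -0.50, *Insl3* at -0.42, *Lhcgr* at -0.033, *Fdx1* at -0.25, *Por* at -0.14 and *Srd5a1* at -0.026. With all variable genes, *Cyp11a1* was at -0.39, *Cyp17a1* at -0.37, *Insl3* at -0.22, *Fdx1* at -0.24, *Por* at -0.12 and *Srd5a1* at -0.023, and without the highest doublet scores *Srd5a1* was at -0.015. With 1 library left out, *Hsd3b6* ran from -1.28 to 1.15, *Insl3* from -0.032 to 0.74, *Por* from -0.15 to 0.21 and *Srd5a1* from -0.044 to 0.055 there. *Por* in interstitial-like cells of control XX was at 0.048 at resolution 0.5 and 0.046 with all variable genes.

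In supporting cells of dKO XY, *Cyp11a1* was at 0.082 without the highest doublet scores, 0.15 at the mitochondrial limit, 0.57 at resolution 0.5 and 0.56 with all variable genes, and from -0.50 to 0.15 with 1 library left out. *Cyp17a1* was at 0.0094, 0.15, 0.42 and 0.38 under the same settings, and from -0.30 to 0.19. In endothelial-like cells without the highest doublet scores, *Cyp11a1* was at -0.43, *Cyp17a1* at -0.65, *Insl3* at -0.15 and *Por* at -0.0054, and *Insl3* was at -0.11 at the mitochondrial limit. With 1 library left out, *Hsd3b1* ran from -0.32 to 1.06, *Insl3* from -0.084 to 0.51 and *Por* from -0.0091 to 0.23 there. For the difference of effects, *Hsd3b6* was at -0.18 at the mitochondrial limit and -0.64 with all variable genes, and from -1.24 to 0.98 with 1 library left out. Depth limits *Hsd3b6*, with 5 to 10 UMIs in a Leydig-like sum, and *Srd5a1*.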
